A study of Caenorhabditis elegans with 36 samples.

Results

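The 10 genes described here belong to the saposin-like family of Caenorhabditis elegans, whose members carry the symbol spp. They are spp-1, spp-2, spp-3, spp-5, spp-8, spp-9, spp-14, spp-17, spp-18 and spp-23, a list given by name, and they are 10 of the 30 spp genes among the 46778 gene identifiers that were counted. The list was chosen with earlier results of these data known. All 10 had counts in some libraries, and 9 of them had at least 30 counts in each of the 36 libraries. Whole-worm RNA was sequenced from PD animals and wild type (WT) animals, grown with or without krill oil and collected at adult day 1, 3 and 6. PD animals are strain BY273, which carries Is[pdat-1 GFP; pdat-1 α-syn] and so makes GFP and α-synuclein under the dat-1 promoter of dopaminergic neurons, and WT animals are strain N2. The genotype field of the sample labels reads Wildtype for both strains, so the groups rest on the strain. Krill oil was mixed into the growth medium at 0.5 μl per ml for animals placed on it as L4 hermaphrodites, and control animals were on medium without it. All groups were fed E. coli OP50 without FdUrd, and after day 2 the aging animals were washed and filtered daily to remove progeny. The 12 groups are PD krill oil, PD control, WT krill oil and WT control at each of the 3 ages, with 3 libraries in each group.

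Saposin-like proteins are small secreted or lysosomal proteins with a shared helical fold held together by disulfide bonds. In mammals the saposins are lysosomal cofactors that present sphingolipids to their hydrolases, and relatives such as NK-lysin permeabilize bacterial membranes. In C. elegans several spp genes encode caenopores, pore-forming peptides of the intestine that help to kill ingested bacteria, and the family is counted among the antimicrobial effectors of innate immunity. SPP-1 and SPP-5 are caenopores of this kind, and SPP-5 takes part in killing the E. coli on which the worms feed.

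On assembly WBcel235 (annotation release 115), the members lie on 4 chromosomes and all are annotated as protein-coding. A cluster on chromosome X holds 3 of the members, namely spp-3 (from 7314969 to 7315353), spp-2 (from 7315995 to 7316818) and spp-5 (from 7319937 to 7320354), with the non-members spp-6 and spp-4 between spp-2 and spp-5. The same chromosome holds spp-14 (from 7725979 to 7726383) and spp-9 (from 11487784 to 11488203). On chromosome I, spp-17 (from 1016405 to 1017176) and spp-23 (from 1018843 to 1019157) are separated by 1666 bases. Chromosome IV holds spp-8 (from 8481664 to 8483621), which follows the non-member spp-10 after 1007 bases, and spp-18 (from 9593712 to 9594413). On chromosome III, spp-1 (from 10355098 to 10355668) overlaps T07C4.3 on the other strand, and since it is not stated whether strand was used in counting, reads of this pair may not be told apart.

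Levels are given in CPM, which are counts per 1000000 counts of a library after TMM scaling over all 36 libraries. Among the members, the mean per kilobase of exon over all libraries was highest for spp-5 (622 CPM per kb), followed by spp-14 (584 CPM per kb), spp-3 (269 CPM per kb), spp-17 (207 CPM per kb) and spp-1 (89.7 CPM per kb). The lowest among the members were spp-8 (33.6 CPM per kb), spp-23 (32.4 CPM per kb) and spp-18 (27.1 CPM per kb). The mean of spp-9, 56.7 CPM per kb, covers libraries that range widely, with 0 counts in 9 libraries and 159 CPM in the highest. The plot of levels by library shows these ranges gene by gene.

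**Figure D1:**
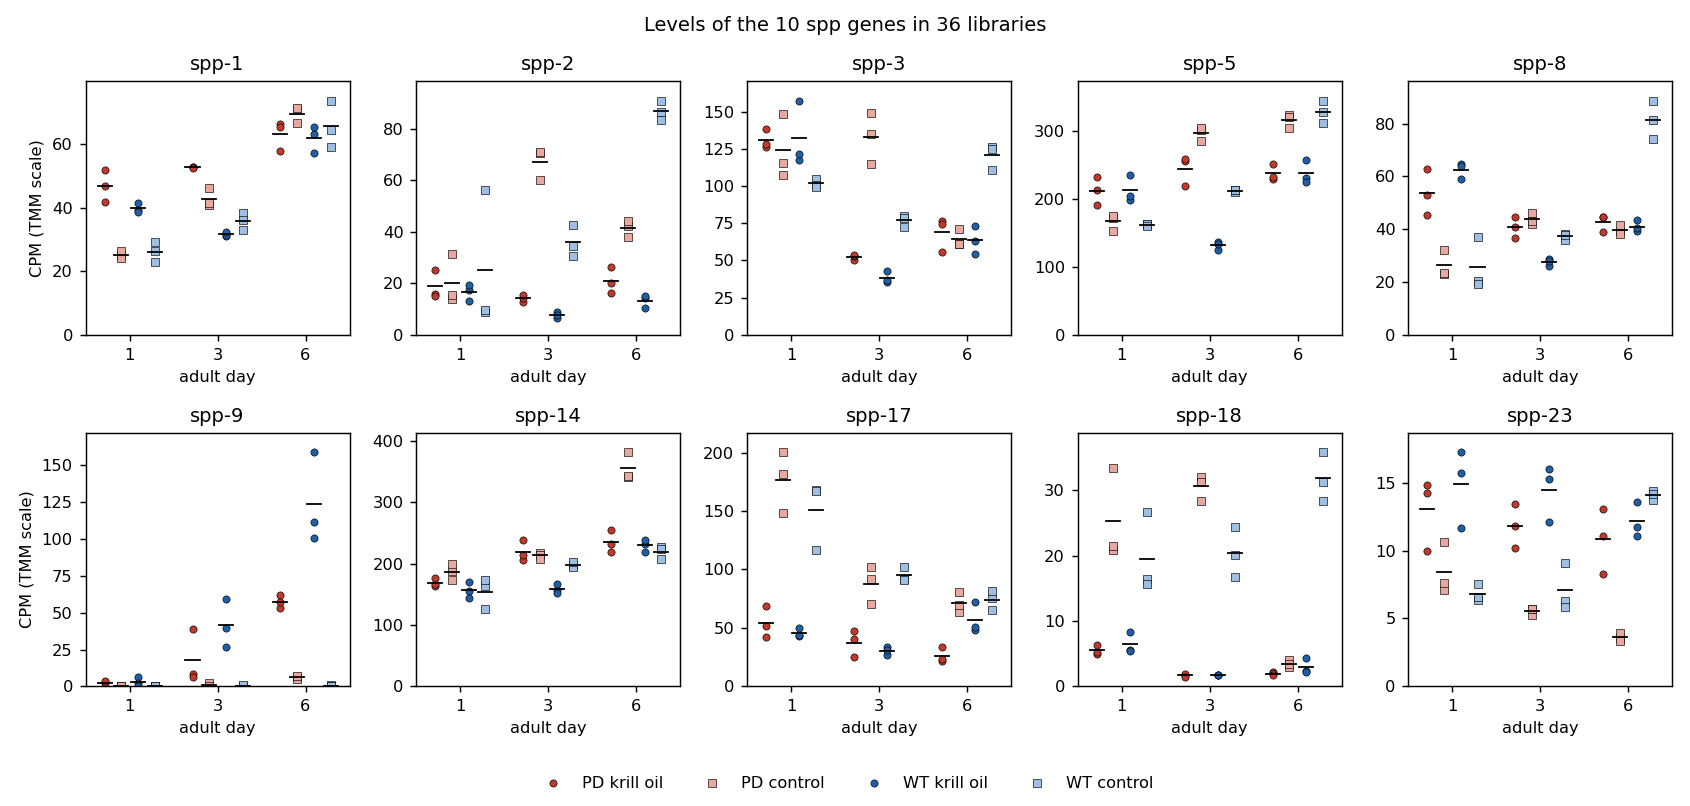
Levels of the 10 members in CPM (TMM scale, linear axis from 0, a separate axis for each gene) at adult day 1, 3 and 6. Each symbol is 1 library, black lines are means of 3 libraries, and within a day the groups run PD krill oil, PD control, WT krill oil and WT control. Within a strain, the spp-18 symbols of krill oil lie below those of controls at each age, and the spp-9 symbols lie above, up to 159 CPM.

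The 36 libraries ranged in depth between 16488713 and 34605080 counts (median 24785463), of which ribosomal RNA genes took 5.31% to 24.5%. The highest shares were those of PD krill oil day 1 replicate 3 (24.5%) and WT control day 6 replicate 3 (23.5%), and the next highest was 13.6%. The labels number the 3 libraries of a group as replicates, and p-values measure only the spread between these samples. Counts of replicates differed by more than sampling noise in every group (lowest chi-square per degree of freedom 3.32), so none was counted as a repeat of another. All 9 markers of the intestine fixed for this work (elt-2, elt-7, ges-1, ifb-2, ifc-2, ifo-1, act-5, pept-1 and erm-1) were detected in each group. Their summed level with krill oil in PD animals was 973 to 1064 CPM at day 1, 755 to 776 CPM at day 3 and 614 to 853 CPM at day 6, and in PD controls it was 1100.1 to 1149.97, 698 to 708 and 408 to 434 CPM. In WT animals it was 929 to 972, 769 to 858 and 680 to 744 CPM with krill oil at day 1, 3 and 6, and 914 to 934, 622 to 766 and 749.8 to 834 CPM in control. The sum of 15 molting and larval cuticle genes was 177 to 279, 678 to 744 and 295 to 716 CPM in PD krill oil at day 1, 3 and 6, and 151 to 167, 494 to 532 and 124 to 139 CPM in PD control. In WT animals these genes summed to 238 to 406, 539 to 689 and 437 to 467 CPM with krill oil, and to 158 to 298, 246 to 267 and 485 to 506 CPM in control. Their sums were thus higher with krill oil at day 3 in both strains and, in PD animals, at day 1 and day 6 too, with no overlap of libraries. At WT day 6 they were lower with krill oil, again with no overlap, and at WT day 1 the libraries overlap. The 4 pharyngeal muscle genes summed to 161 to 194, 265 to 286 and 144 to 248 CPM in PD krill oil at day 1, 3 and 6, and to 319.7 to 350.1, 206 to 221 and 58.4 to 69.0 CPM in PD control. The WT sums of these 4 genes were 159 to 178, 241 to 344 and 182 to 217 CPM in krill oil, and 231 to 283, 170.2 to 254 and 399 to 434 CPM in control. At day 1 they were thus lower with krill oil in both strains, and at day 6 higher in PD and lower in WT animals. At PD day 3 they were higher with krill oil with no overlap, and at WT day 3 the libraries overlap. The 10 sperm genes summed at day 6 to 18.2 to 29.6 CPM in PD krill oil and 5.35 to 7.47 CPM in PD control, and to 21.0 to 24.2 CPM in WT krill oil and 8.12 to 9.97 CPM in WT control. At WT day 3 they summed to 13.8 to 29.1 CPM in krill oil and 9.58 to 10.3 CPM in control, and krill oil and control libraries overlap at PD day 3 and at day 1. At day 6 the 13 oocyte and eggshell genes summed to 12590 to 14328 CPM in PD krill oil and to 16486 to 16808 CPM in PD control. The WT sums at day 6 were 13362 to 14449 CPM in krill oil and 11830.5 to 12556 CPM in control. With krill oil these sums were lower at day 3 in both strains and at WT day 1, and at PD day 1 the libraries overlap. In whole worms, fewer cells of a type and less RNA per cell cannot be told apart, and the part of these shifts in the values of the spp genes was not tested.

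Krill oil moved the 10 members in opposite directions. Of these genes, spp-9 was higher with krill oil wherever it could be tested, spp-17 and spp-18 fell at every age in both strains, and spp-23 rose in 5 of the 6 comparisons. The X-linked spp-2 fell at day 3 and day 6, and spp-1, spp-5 and spp-8 rose at day 1 in both strains. A gene is said to have risen or fallen when its adjusted p was under 0.05 over all genes tested (edgeR quasi-likelihood test, Benjamini-Hochberg). Since the members were chosen with earlier results of these data known, their counts beside the shares of all genes are descriptions and no test of the family. In PD animals at day 1, 4 of 9 tested members rose and 2 fell with krill oil, where 7.44% of all genes tested rose and 8.07% fell. At PD day 3, 3 of 10 rose and 5 fell (21.2% and 19.9% of all genes), and at PD day 6, 2 rose and 5 fell (24.8% and 12% of all genes). Of all genes called at PD day 6, 67.4% were higher, against 51.0% with DESeq2. In WT animals at day 1, 4 of 9 rose and 2 fell (4.87% and 2.49% of all genes), and at day 3, 2 of 10 rose and 7 fell (22% and 14.1% of all genes). At WT day 6, 1 rose and 6 fell, where 30.9% of all genes rose and 32.6% fell, and 48.7% of those called were higher, against 58.7% with DESeq2. The median log2 fold change of the tested members was 0.08, -0.20 and -0.24 at PD day 1, 3 and 6, where the median of all genes was 0.01, 0.00 and 0.05. In WT animals it was 0.38, -0.56 and -0.41 for the members and -0.01, 0.00 and -0.02 for all genes.

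**Figure D2:**
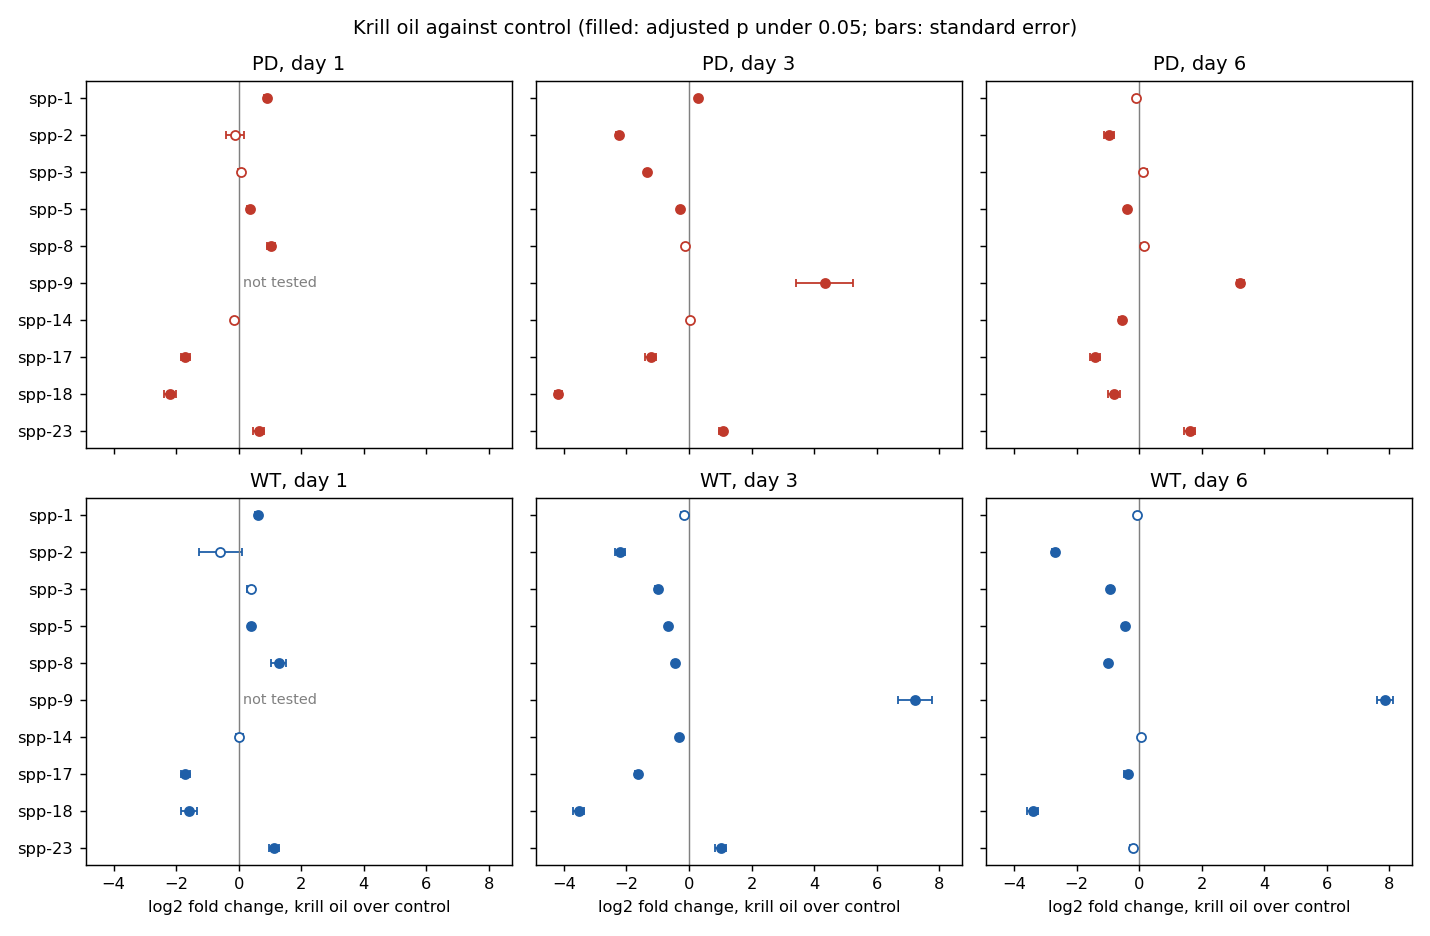
Log2 fold change of each member with krill oil over control (horizontal axis) in PD (upper row) and WT (lower row) at day 1, 3 and 6, with standard errors. Filled symbols have an adjusted p under 0.05, open symbols do not, and spp-9 was not tested at day 1, where its controls had 0 counts. The widest span is at WT day 6, from -3.40 for spp-18 to 7.86 for spp-9.

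The caenopore gene spp-1 rose with krill oil at day 1. It stood at 41.7, 46.9 and 52.0 CPM in PD krill oil and at 25.1, 24.3 and 26.3 CPM in PD control (log2 fold change 0.89, standard error 0.08, adjusted p = 2.49e-05). At the same age it stood at 39.3, 41.4 and 38.8 CPM in WT krill oil and at 22.9, 26.4 and 29.4 CPM in WT control (log2 fold change 0.60, standard error 0.09, adjusted p = 0.00882). In both strains every krill oil library lay above every control library, though without WT krill oil replicate 2 the WT call was lost (log2 fold change 0.57, adjusted p = 0.0527). In PD animals spp-1 was still higher at day 3, with 52.9, 52.8 and 52.5 CPM in krill oil and 46.2, 40.8 and 41.5 CPM in control (log2 fold change 0.29, adjusted p = 0.000375). The WT libraries at day 3 held 31.3, 31.6 and 32.4 CPM in krill oil and 32.9, 38.3 and 36.2 CPM in control, with a log2 fold change of -0.17 (adjusted p = 0.0815) that passed without WT control replicate 1 (-0.24, adjusted p = 0.0415). Krill oil acted differently on spp-1 in the strains at this age, the log2 effect in PD being above that in WT by 0.46 (standard error 0.09, adjusted p = 0.00486). By day 6 its log2 fold changes were -0.10 in PD and -0.07 in WT (adjusted p = 0.320 and 0.377). The libraries overlap in WT, while in PD all 3 krill oil libraries (57.8, 66.46 and 65.5 CPM) lay below the controls (66.61, 70.7 and 71.3 CPM).

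Another caenopore gene, spp-5, turned from higher to lower with age in both strains. At day 1 it stood at 191, 213 and 233 CPM in PD krill oil and at 153, 173 and 175 CPM in PD control (log2 fold change 0.35, standard error 0.07, adjusted p = 0.00628). WT animals at day 1 averaged 213 ± 19.5 CPM of spp-5 with krill oil and 162 ± 1.79 CPM without (SD, n = 3 each, log2 fold change 0.39, standard error 0.06, adjusted p = 0.00968). The krill oil libraries were thus the higher ones at day 1, and from day 3 they were the lower ones. At day 3 spp-5 fell by 0.29 on the log2 scale in PD animals (219, 256 and 259.7 CPM with krill oil, 302, 286 and 304 CPM in control, adjusted p = 0.000831). The log2 fold change of WT animals at day 3 was farther from 0, with 125, 137 and 134 CPM in krill oil and 209.9, 214 and 214 CPM in control (log2 fold change -0.68, standard error 0.05, adjusted p = 8.63e-06). The strain difference of these effects was 0.40 (standard error 0.08, adjusted p = 0.00666). At day 6 it stood at 229, 233 and 252 CPM in PD krill oil and at 305, 324 and 321 CPM in PD control (log2 fold change -0.38, adjusted p = 0.00120). The WT libraries of day 6 held 231, 258 and 225 CPM with krill oil and 328, 312 and 345 CPM without (log2 fold change -0.46, adjusted p = 9.16e-06). At neither later age did krill oil and control libraries overlap. Set against its own effect at day 1, the effect of krill oil at day 6 was lower by 0.76 in PD animals (standard error 0.10, adjusted p = 1.60e-05) and by 0.86 in WT animals (standard error 0.08, adjusted p = 1.49e-06), both on the log2 scale.

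In the same X-linked cluster as spp-5, spp-2 fell at the later ages. At day 3 spp-2 stood at 12.7, 14.4 and 15.7 CPM in PD krill oil and at 70.7, 60.2 and 71.1 CPM in PD control (log2 fold change -2.24, standard error 0.08, adjusted p = 7.14e-10). WT libraries of day 3 held 6.59, 8.95 and 7.63 CPM with krill oil, against 34.7, 42.5 and 30.7 CPM in control (log2 fold change -2.21, standard error 0.15, adjusted p = 8.50e-06). No krill oil library came near a control library at this age in either strain. At day 6 WT krill oil libraries held 10.6, 14.3 and 15.1 CPM and WT control libraries 83.6, 91.0 and 86.6 CPM (log2 fold change -2.70, standard error 0.09, adjusted p = 2.90e-11). The fall at day 6 was smaller in PD animals, with 16.3, 26.4 and 20.1 CPM in krill oil and 38.2, 42.5 and 44.3 CPM in control (log2 fold change -0.95, standard error 0.16, adjusted p = 0.00167). At day 1 a single library set the direction of the WT value. WT control replicate 3 held 56.2 CPM of spp-2, against 9.09 and 9.81 CPM in replicates 1 and 2 of that group, and 13.3, 17.6 and 19.5 CPM in WT krill oil. With all libraries the log2 fold change was -0.59 (adjusted p = 0.676), and without WT control replicate 3 it was 0.82 (adjusted p = 0.00706). Without a call, PD animals at day 1 had 15.9, 15.2 and 25.4 CPM in krill oil and 13.97, 15.4 and 31.6 CPM in control (log2 fold change -0.12, adjusted p = 0.853). In WT control replicate 3 the molting and larval cuticle genes summed to 298 CPM, against 187 and 158 CPM in replicates 1 and 2, and their part in the spp-2 value was not tested.

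Adjacent to spp-2, spp-3 fell with krill oil at day 3 in both strains and at day 6 in WT animals. It stood at 50.3, 53.3 and 53.7 CPM in PD krill oil and 135, 115 and 149 CPM in PD control at day 3 (log2 fold change -1.34, standard error 0.07, adjusted p = 3.49e-08). The WT values at day 3 were 35.3, 42.7 and 36.6 CPM in krill oil and 72.2, 80.0 and 78.5 CPM in control (log2 fold change -1.01, standard error 0.08, adjusted p = 1.38e-05). At WT day 6 spp-3 stood at 54.1, 73.2 and 63.0 CPM with krill oil and at 126, 125 and 111 CPM without (log2 fold change -0.92, standard error 0.08, adjusted p = 6.12e-07). PD animals at day 6 had 76.6, 74.4 and 55.5 CPM in krill oil and 61.3, 61.2 and 71.1 CPM in control, values that overlap (log2 fold change 0.13, adjusted p = 0.413, but 0.0447 at 0.21 without krill oil replicate 3). At day 1 the log2 fold changes of spp-3 were 0.08 in PD and 0.38 in WT (adjusted p = 0.672 and 0.0742). The PD value passed without control replicate 3 (0.23, adjusted p = 0.0223), and the WT value without krill oil replicate 2 (0.23, adjusted p = 0.0398), with DESeq2 (adjusted p = 0.00637) and with all 36 libraries in 1 fit (adjusted p = 0.0330). The day 6 effect on spp-3 differed between PD and WT by 1.03 (standard error 0.16, adjusted p = 0.000129).

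The genes of the cluster did not move as a block at day 6. The non-member spp-4, 1180 bases from spp-5, rose with krill oil at day 6 in PD animals, with 45.1 ± 8.15 CPM in krill oil and 19.2 ± 0.691 CPM in control (SD, n = 3 each, log2 fold change 1.27, adjusted p = 0.000101). At WT day 6 spp-4 rose as well (30.0 ± 3.11 CPM with krill oil, 17.7 ± 3.29 CPM in control, log2 fold change 0.77, adjusted p = 6.12e-05), while spp-2, spp-3 and spp-5 fell there. Earlier, directions were partly shared. At day 1 spp-4 rose in both strains, as spp-5 did. At PD day 3 spp-4 fell, as did spp-2, spp-3 and spp-5, and at WT day 3 it was not called. The counting of reads that match more than 1 gene is not given in the sources used here, and the identity of the sequences of these neighbors was not analysed here.

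Krill oil lowered spp-18 more than any other member at day 3. This gene stood at 1.69, 1.92 and 1.50 CPM in PD krill oil and at 32.1, 28.5 and 31.3 CPM in PD control at day 3 (log2 fold change -4.17, standard error 0.10, adjusted p = 2.41e-11). In WT animals at that age it stood at 1.73, 1.82 and 1.77 CPM with krill oil and at 20.1, 24.5 and 16.7 CPM without (log2 fold change -3.52, standard error 0.18, adjusted p = 2.43e-06). All 6 krill oil libraries were at or below 1.92 CPM, and the lowest control library was at 16.7 CPM. At day 1 the falls were smaller. PD animals had 4.95, 5.24 and 6.33 CPM in krill oil and 20.9, 21.5 and 33.4 CPM in control (log2 fold change -2.20, standard error 0.19, adjusted p = 1.87e-05). WT animals had 5.61, 8.38 and 5.47 CPM in krill oil and 16.4, 15.6 and 26.7 CPM in control (log2 fold change -1.59, standard error 0.26, adjusted p = 0.0109). This WT call was lost when krill oil replicate 1 (-1.49, adjusted p = 0.0577) or krill oil replicate 3 (-1.49, adjusted p = 0.0536) was left out. At day 6 the strains parted. WT animals had 2.37, 2.21 and 4.43 CPM in krill oil and 28.4, 35.9 and 31.3 CPM in control (log2 fold change -3.40, standard error 0.18, adjusted p = 2.93e-09), whereas PD animals had 2.21, 1.99 and 1.68 CPM in krill oil and 4.08, 2.93 and 3.48 CPM in control (log2 fold change -0.81, standard error 0.19, adjusted p = 0.00932). Ordered by mean, the 3 lowest groups were PD krill oil day 3 (1.70 ± 0.207 CPM), WT krill oil day 3 (1.77 ± 0.0417 CPM) and PD krill oil day 6 (1.96 ± 0.268 CPM), whose libraries overlap, and the highest was WT control day 6 (31.9 ± 3.75 CPM, SD, n = 3).

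In both strains spp-17 had its highest levels in day 1 controls and fell with krill oil at each age. At day 1 it stood at 41.9, 68.5 and 51.7 CPM in PD krill oil and at 149, 181 and 200.4 CPM in PD control (log2 fold change -1.71, standard error 0.15, adjusted p = 2.27e-05). The WT values at day 1 were 43.4, 44.3 and 50.0 CPM in krill oil and 168, 167 and 117 CPM in control (log2 fold change -1.72, standard error 0.14, adjusted p = 0.000688). Krill oil and control libraries were well apart at this age, and the fold changes of the strains were alike in size. At day 3 it stood at 25.1, 47.3 and 40.2 CPM in PD krill oil and at 91.6, 70.2 and 102 CPM in PD control (log2 fold change -1.23, standard error 0.17, adjusted p = 0.000128). WT libraries of day 3 held 26.6, 33.8 and 31.1 CPM with krill oil and 102, 91.7 and 91.0 CPM without (log2 fold change -1.63, standard error 0.09, adjusted p = 2.58e-06). In neither strain did the groups overlap at day 3. At day 6 PD animals had 33.9, 21.4 and 23.2 CPM in krill oil and 63.7, 69.2 and 80.5 CPM in control (log2 fold change -1.42, standard error 0.15, adjusted p = 0.000129). WT animals at day 6 had 47.9, 72.3 and 50.6 CPM in krill oil and 75.7, 65.3 and 81.3 CPM in control (log2 fold change -0.37, standard error 0.12, adjusted p = 0.0167). Here krill oil replicate 2 lay above control replicate 2, so the groups overlap. Without that krill oil library the log2 fold change was -0.58. The WT call at day 6 was lost with DESeq2 (log2 fold change -0.32, adjusted p = 0.231), with all 36 libraries in 1 fit (-0.38, adjusted p = 0.101), and on leaving out control replicate 3 (-0.31, adjusted p = 0.0592), krill oil replicate 1 (-0.25, adjusted p = 0.0819) or krill oil replicate 3 (-0.30, adjusted p = 0.0539).

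Its neighbor on chromosome I, spp-23, went the other way. At day 3 it stood at 13.4, 11.8 and 10.2 CPM in PD krill oil and at 5.26, 5.70 and 5.71 CPM in PD control (log2 fold change 1.08, standard error 0.11, adjusted p = 9.81e-06). The WT values at that age were 16.0, 12.1 and 15.3 CPM with krill oil and 6.32, 5.84 and 9.06 CPM without (log2 fold change 1.02, standard error 0.17, adjusted p = 0.00175). At day 6 PD animals had 13.1, 8.28 and 11.1 CPM in krill oil and 3.54, 3.36 and 3.94 CPM in control (log2 fold change 1.61, standard error 0.17, adjusted p = 0.000129). In each of these comparisons all krill oil libraries were above all control libraries. WT animals at day 6 differed from this, with 13.6, 11.1 and 11.8 CPM in krill oil and 13.7, 14.3 and 14.1 CPM in control (log2 fold change -0.20, adjusted p = 0.0684), and the lower value passed without krill oil replicate 1 (-0.29, adjusted p = 0.0191). At day 1 spp-23 rose by a log2 fold change of 1.13 in WT animals (17.2, 15.7 and 11.6 CPM with krill oil, 7.53, 6.36 and 6.58 CPM in control, adjusted p = 0.00611). The PD change at day 1 was 0.63 (14.8, 10.0 and 14.3 CPM with krill oil, 7.08, 7.64 and 10.6 CPM in control, adjusted p = 0.0346), and it was lost on leaving out control replicate 1 (0.51, adjusted p = 0.130), control replicate 2 (0.56, adjusted p = 0.129), krill oil replicate 1 (0.52, adjusted p = 0.115) or krill oil replicate 3 (0.57, adjusted p = 0.0931).

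Downstream of spp-10, the worm gene for a prosaposin-like protein, spp-8 rose with krill oil at day 1. PD animals had 53.0, 45.3 and 62.8 CPM in krill oil and 23.1, 23.5 and 32.3 CPM in control (log2 fold change 1.03, standard error 0.14, adjusted p = 0.000461). WT animals had 59.0, 64.6 and 63.9 CPM in krill oil and 20.5, 19.4 and 37.1 CPM in control (log2 fold change 1.28, standard error 0.23, adjusted p = 0.0175). Every krill oil library lay above every control library in both strains. The WT call was lost when any library other than control replicate 3 was left out. With control replicate 1 or 2 left out, its log2 fold change was 1.15 or 1.10 and its adjusted p 0.0676 or 0.0546. With krill oil replicate 1, 2 or 3 left out, its log2 fold change was 1.32, 1.25 or 1.26 and its adjusted p 0.0602, 0.0863 or 0.0694. In WT animals spp-8 fell at day 3 (26.2, 28.8 and 28.0 CPM with krill oil, 36.1, 38.1 and 38.01 CPM in control, log2 fold change -0.43, adjusted p = 0.000752). At day 6 it fell further, with 39.2, 40.3 and 43.5 CPM in WT krill oil and 81.4, 88.7 and 74.3 CPM in WT control (log2 fold change -0.98, standard error 0.06, adjusted p = 2.00e-08). The PD values of spp-8 were -0.12 at day 3 and 0.14 at day 6 (adjusted p = 0.160 and 0.198), and the day 3 value passed without krill oil replicate 1 (-0.19, adjusted p = 0.0235). The effect of krill oil on spp-8 was thus lower at day 6 than at day 1 by 0.92 in PD animals (adjusted p = 0.000303) and by 2.27 in WT animals (adjusted p = 1.49e-06) on the log2 scale. The neighbor spp-10 gave log2 fold changes of -0.13 in PD animals and -0.12 in WT animals at day 1 (adjusted p = 0.102 and 0.0825), and fell by 0.75 and 0.53 at day 3 (adjusted p = 3.74e-09 and 5.39e-05).

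For spp-14, which is abundant in all groups, krill oil made a difference in 2 comparisons. At day 6 it stood at 219.5, 254 and 232 CPM in PD krill oil and at 341, 343 and 382 CPM in PD control (log2 fold change -0.56, standard error 0.08, adjusted p = 0.000538). At WT day 3 it stood at 157, 152 and 166 CPM with krill oil and at 198, 194 and 202 CPM without (log2 fold change -0.32, standard error 0.05, adjusted p = 0.000744). In the other 4 comparisons its log2 fold changes lay between -0.14 and 0.07, with adjusted p from 0.0968 to 0.952. The lowest of them, at PD day 1, passed without control replicate 3 (-0.20, adjusted p = 0.0280).

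The sharpest contrast in level was that of spp-9. None of the 6 control libraries of day 1 held a read of it, while PD krill oil held 2.71, 0.105 and 3.67 CPM and WT krill oil 6.15, 2.38 and 0.318 CPM. Against a floor of 3 counts over the control group, spp-9 was at least 55.8-fold higher in PD krill oil and at least 81.5-fold higher in WT krill oil at day 1, though the krill oil libraries of a group differed widely among themselves. The filter on low counts left spp-9 out of the edgeR test at day 1. DESeq2 kept it and gave adjusted p = 0.00308 in PD and 0.000431 in WT. The quasi-likelihood test with all 36 libraries in 1 fit gave adjusted p = 0.0483 in PD and 0.0133 in WT. Where the filter kept spp-9 after a library was left out, adjusted p was at most 0.0331 in PD, and in WT it was 0.110 without control replicate 1 and 0.123 without control replicate 2. The groups were apart at day 3 too. PD libraries stood at 39.0, 8.58 and 6.09 CPM in krill oil and at 0, 2.38 and 0 CPM in control (log2 fold change 4.34, standard error 0.91, adjusted p = 0.00227, but 0.202 with DESeq2). Without control replicate 2 the remaining PD controls are at 0 counts. The log2 fold change was 3.07 without krill oil replicate 1, and it was 3.75 without control replicate 1. WT libraries at day 3 stood at 59.3, 26.5 and 39.5 CPM with krill oil and at 0, 0.0363 and 0.672 CPM without (log2 fold change 7.23, standard error 0.55, adjusted p = 1.37e-05). Without WT control replicate 3 the remaining WT controls hold 0 and 0.0363 CPM, so the size of this fold change rests on that library. At day 6 the libraries of a group lay closer together. PD krill oil libraries held 53.4, 61.8 and 57.1 CPM and PD control libraries 6.49, 5.28 and 6.96 CPM (log2 fold change 3.24, standard error 0.12, adjusted p = 7.21e-07). WT krill oil libraries held 159, 100.3 and 112 CPM, and no WT control library was above 0.862 CPM. The lowest krill oil library lay above the highest control library at every age in both strains. With 3 libraries each, the order of the krill oil groups by mean was WT day 6 (124 ± 31.0 CPM), PD day 6 (57.4 ± 4.20 CPM), WT day 3 (41.8 ± 16.5 CPM), PD day 3 (17.9 ± 18.3 CPM), WT day 1 (2.95 ± 2.96 CPM) and PD day 1 (2.16 ± 1.85 CPM), and neighbors in this order overlap in their libraries except WT day 6 with PD day 6.

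Over the means of the 12 groups, the gene with the pattern most like that of spp-9 was another spp gene, spp-12. It lies on chromosome V from 13889816 to 13890327 and encodes an antimicrobial peptide made in pharyngeal neurons. Among 8752 genes compared, its log2 CPM had the highest Pearson correlation with that of spp-9 (0.978), and the ABC transporter gene pgp-5 had the next (0.944). These correlations are descriptions over 12 group means, which share the split by diet and age. At day 6 spp-12 stood at 13.7, 13.4 and 20.1 CPM in PD krill oil and at 4.85, 6.06 and 6.27 CPM in PD control (log2 fold change 1.50, adjusted p = 0.000257). WT libraries at day 6 stood at 26.2, 12.1 and 14.5 CPM with krill oil and at 0.328, 0.520 and 0.404 CPM without (log2 fold change 5.38, adjusted p = 3.52e-08). The libraries with the lowest spp-9 in PD krill oil day 1 (replicate 2, 0.105 CPM) and WT krill oil day 1 (replicate 3, 0.318 CPM) also had the lowest spp-12 of their groups (0.314 and 0.827 CPM). The neighbor of spp-9 at a distance of 1926 bases, spp-21, was below 1 CPM in every library. It rose at day 6 in PD animals (0.638 ± 0.0370 CPM in krill oil, 0.243 ± 0.0288 CPM in control, adjusted p = 0.00698) and in WT animals (0.715 ± 0.0680 CPM in krill oil, 0.201 ± 0.0516 CPM in control, adjusted p = 0.000359; SD, n = 3 each).

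**Figure D3:**
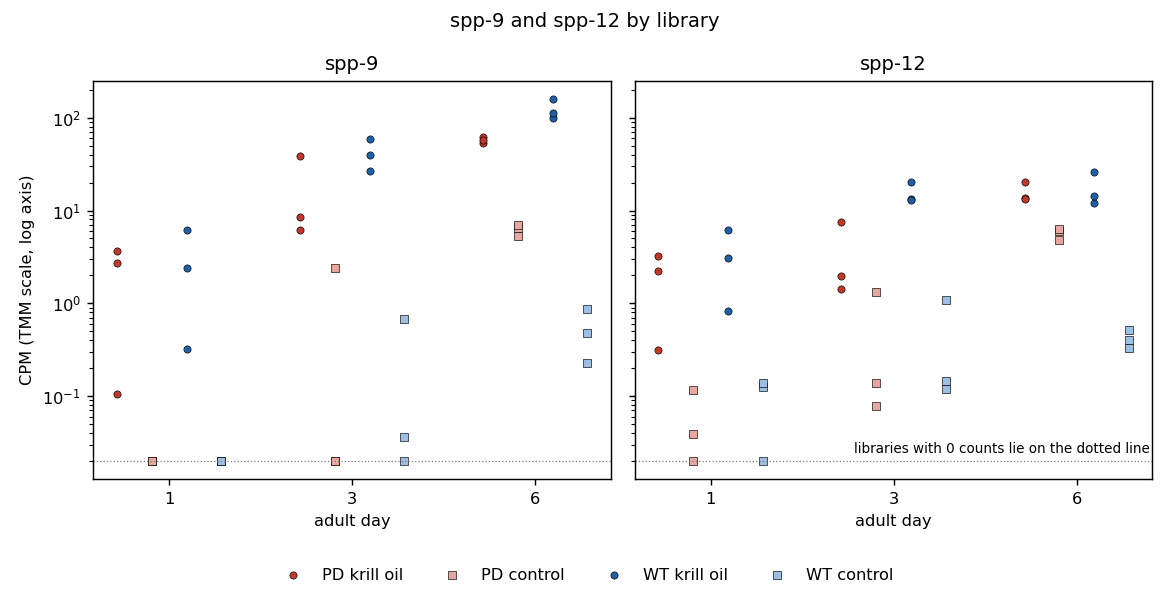
Levels of spp-9 (left) and the non-member spp-12 (right) in CPM on a log axis, by adult day. Each symbol is 1 library, groups run PD krill oil, PD control, WT krill oil and WT control within a day, and libraries with 0 counts are drawn on the dotted line, where symbols coincide. Control libraries of day 6 split by strain, with spp-9 at 5.28 to 6.96 CPM in PD and 0.224 to 0.862 CPM in WT.

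For the other members, the gene with the highest Pearson correlation over the same 12 group means was Y45F10C.4 for spp-1 (0.943), R09F10.1 for spp-2 (0.964), R10H10.3 for spp-3 (0.963), K06A4.7 for spp-5 (0.965) and Y95B8A.6 for spp-14 (0.955). For spp-18 it was F09C8.1 (0.985), followed by the aquaporin gene aqp-8 (0.965), and for spp-23 it was paf-2, a gene of a platelet-activating factor acetylhydrolase (0.935). The acid ceramidase gene asah-1 was most like spp-8 (0.926), and psd-1, a phosphatidylserine decarboxylase gene, was most like spp-17 (0.927). With Spearman's rank correlation, the leading gene was another one for spp-1, spp-2, spp-8 and spp-23. For spp-18, clec-7 and F09C8.1 were tied in the lead (0.965 each).

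Controls of the strains were compared to show where PD and WT animals differ without krill oil. At day 1 no member passed, against 10.9% of all genes tested, and at an unadjusted p under 0.05 the count was 2 (spp-3 and spp-14) with edgeR and with DESeq2. Without WT control replicate 2, spp-14 passed (0.37, adjusted p = 0.0359), and without WT control replicate 3, spp-2 did (1.10, adjusted p = 0.0460), where its value with all libraries was -0.31 (adjusted p = 0.768). At day 3, 6 of 10 members were higher in PD control and none was lower (21.5% of all genes were higher and 16.3% lower), with log2 differences from 0.23 for spp-8 to 0.90 for spp-2. The value of spp-8 was lost without PD control replicate 1 (0.19, adjusted p = 0.0672) or WT control replicate 1 (0.19, adjusted p = 0.0654), and with all 36 libraries in 1 fit both spp-8 (adjusted p = 0.238) and spp-2 (0.91, adjusted p = 0.0604) were lost. At day 6, 2 members were higher and 5 lower in PD control, where 30.2% of all genes were higher and 43.5% lower. The median over all genes there was -0.25 with TMM and -0.10 with RLE factors, and the share of called genes that were higher was 41.02%, against 51.6% with DESeq2. The largest differences were those of spp-9, 6.24 ± 0.865 CPM in PD control and 0.523 ± 0.321 CPM in WT control (log2 difference 3.54, standard error 0.34, adjusted p = 4.16e-07), and of spp-18, 3.50 ± 0.575 CPM in PD control and 31.9 ± 3.75 CPM in WT control (log2 difference -3.18, standard error 0.20, adjusted p = 8.72e-09). Next was spp-23, with 3.54, 3.36 and 3.94 CPM in PD control and 13.7, 14.3 and 14.1 CPM in WT control (log2 difference -1.97, standard error 0.15, adjusted p = 4.22e-08). Also lower in PD control were spp-2 (-1.07), spp-8 (-1.04) and spp-3 (-0.91), and spp-14 was higher (0.69), with adjusted p from 2.93e-08 to 7.68e-06. For spp-1 the log2 difference was 0.08 (adjusted p = 0.407), and it passed with DESeq2 (0.27, adjusted p = 0.00892), with RLE factors (0.22, adjusted p = 0.0261) and without WT control replicate 3 (0.26, adjusted p = 0.0129).

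Whether krill oil acted differently on the members in PD and WT animals was tested by the interaction of diet and strain at each age. At day 1 none of the members passed, against 0.0897% of all genes, and spp-1 alone had an unadjusted p under 0.05, with edgeR and with DESeq2. The 0 counts of spp-9 in both day 1 control groups leave its interaction without a usable estimate. At day 3, 4 of 10 members passed, all with a higher value in PD than in WT, namely spp-1, spp-5, spp-14 (0.35, adjusted p = 0.00701) and spp-8 (0.32, adjusted p = 0.0484). Of all genes 3.4% had a higher and 6.2% a lower value, and 35.4% of those called were higher, against 47.7% with DESeq2. The call of spp-14 was lost with all 36 libraries in 1 fit (adjusted p = 0.0564), and that of spp-8 also there (adjusted p = 0.377) and when any of 8 libraries was left out (adjusted p from 0.0514 to 0.104), the exceptions being PD krill oil replicate 2, WT krill oil replicate 3 and WT control replicates 1 and 2. With the replicate number as a block, spp-8 was lost too (0.32, adjusted p = 0.0736). In the other direction, spp-3 passed without PD control replicate 2 (-0.43, adjusted p = 0.0254) and spp-18 without WT control replicate 2 (-0.78, adjusted p = 0.0201), and both passed with only all-zero genes removed (spp-3 at -0.28, adjusted p = 0.00372, and spp-18 at -0.60, adjusted p = 0.0417). At day 6, 8 of 10 members passed, 5 with a higher and 3 with a lower value in PD, where 34.5% of all genes had a higher and 25.1% a lower value. The median over all genes there was 0.22 with TMM and 0.09 with RLE factors, and 57.9% of those called were higher, against 42.6% with DESeq2. Measured against the median of 0.22, none of the 8 changes sign.

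At day 6 the fall of spp-18 was weaker in PD than in WT by 2.57 (standard error 0.31, adjusted p = 1.46e-05) and that of spp-2 by 1.73 (standard error 0.21, adjusted p = 1.27e-05), on the log2 scale. With krill oil spp-18 stood at 1.96 ± 0.268 CPM in PD and 3.00 ± 1.23 CPM in WT (SD, n = 3 each), and its controls stood at 3.50 ± 0.575 CPM in PD and 31.9 ± 3.75 CPM in WT. The rise of spp-23 in PD exceeded the WT value by 1.80 (standard error 0.20, adjusted p = 6.05e-06). For spp-8 and spp-3 the differences were 1.10 and 1.03 (adjusted p = 1.91e-06 and 0.000129), both being lower with krill oil in WT. The rise of spp-9 was smaller in PD than in WT by 4.64 on the log2 scale (standard error 0.36, adjusted p = 5.39e-07), and here the strains differed with krill oil too, at 57.4 ± 4.20 CPM in PD and 124 ± 31.0 CPM in WT (SD, n = 3 each). For spp-17 and spp-14 the PD value was below the WT value, by 1.06 and 0.65 (adjusted p = 0.00117 and 7.01e-05). For spp-1 and spp-5 the interactions were -0.04 and 0.06 (adjusted p = 0.771 and 0.549), and neither passed.

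**Figure D4:**
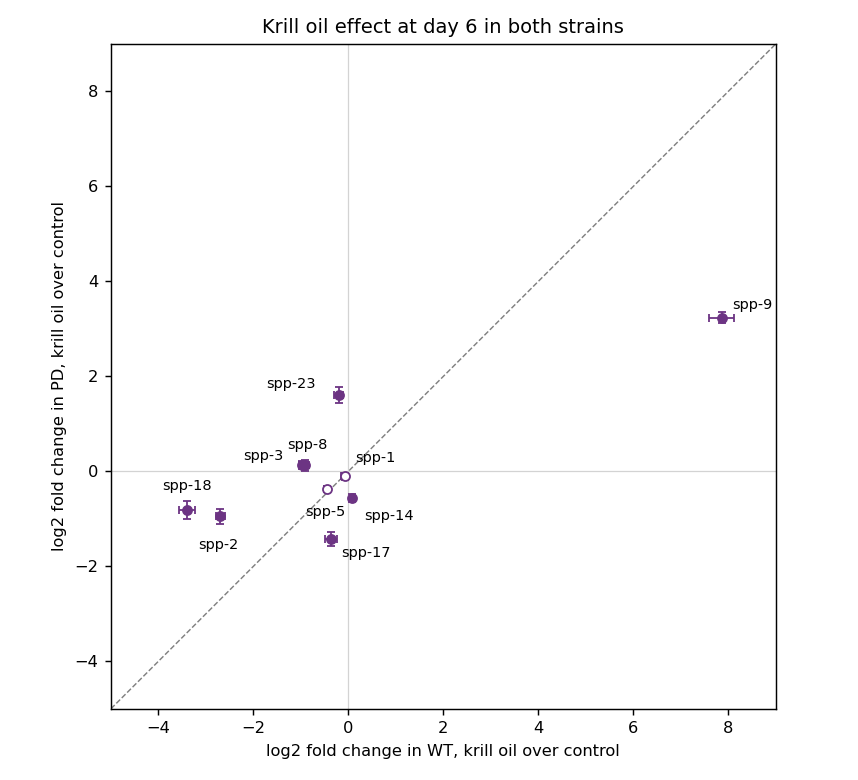
Log2 fold change with krill oil over control at day 6 in PD (vertical axis) against that in WT (horizontal axis), with standard errors, for the 10 members. Filled symbols have an interaction of diet and strain with an adjusted p under 0.05, and the dashed line marks equal effects. The spp-9 symbol lies below the line at 3.24 in PD and 7.86 in WT, and spp-18, spp-2 and spp-23 lie above it.

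With age, the members followed different courses under the diets. In PD krill oil 3 of 10 members rose and 4 fell at day 3 against day 1 (25.9% and 23.3% of all genes), and 3 rose and none fell at day 6 against day 3 (18.3% and 16.8% of all genes). The 3 that rose at the later step in PD krill oil are spp-1, spp-3 and spp-9, and the count of calls there was 1 without day 6 replicate 2, 2 without day 3 replicate 2 or 3, and 6 without day 6 replicate 1. In PD controls 5 rose and 2 fell at day 3 (26.2% and 21.5% of all genes), and 3 rose and 4 fell at day 6 (28.4% and 33.3% of all genes). In WT krill oil 1 rose and 6 fell at day 3 (21.8% and 20.1% of all genes), and 7 rose and none fell at day 6 (10.3% and 11.8% of all genes). In WT controls 4 rose and 2 fell at day 3 (11.4% and 12.3% of all genes), and 7 rose and 1 fell at day 6 (36.8% and 28.5% of all genes).

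The largest fall of a member in controls was that of spp-18 in PD animals. Its level was 3.50 ± 0.575 CPM at day 6 and 30.6 ± 1.92 CPM at day 3 (SD, n = 3 each, log2 fold change -3.10, standard error 0.17, adjusted p = 1.30e-10). In WT controls the same step was upward, 31.9 ± 3.75 CPM at day 6 and 20.4 ± 3.87 CPM at day 3 (log2 fold change 0.65, adjusted p = 0.0157), though the call was lost without day 3 replicate 3 (0.51, adjusted p = 0.0750) or day 6 replicate 2 (0.55, adjusted p = 0.0683). The spp-3 gene also parted by strain in controls at this step, with a log2 fold change of -1.02 in PD (adjusted p = 1.24e-06) and 0.65 in WT (adjusted p = 6.43e-05). The difference between the strains in these steps was not tested.

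WT animals with krill oil had their lowest levels of many members at day 3. In that group spp-5 was at 213 ± 19.5, 132 ± 6.04 and 238 ± 17.3 CPM at day 1, 3 and 6, and spp-3 at 132 ± 22.04, 38.2 ± 3.97 and 63.5 ± 9.56 CPM (SD, n = 3). The falls at day 3 against day 1 were 0.68 for spp-5 (adjusted p = 2.31e-07), 1.79 for spp-3 (adjusted p = 5.04e-09), 1.17 for spp-8 (adjusted p = 2.83e-05), 1.88 for spp-18 (adjusted p = 0.000135), 0.58 for spp-17 (adjusted p = 0.00801) and 0.33 for spp-1 (adjusted p = 0.00762), on the log2 scale. At day 6 against day 3, spp-1 rose by 0.97, spp-17 by 0.90, spp-5 by 0.85, spp-3 by 0.73 and spp-14 by 0.53 (adjusted p from 7.03e-08 to 0.000664). In WT controls spp-5 rose at both steps, by 0.39 and 0.63 (adjusted p = 0.000129 and 3.10e-07). The summed level of all 30 spp genes was 951 ± 37.1, 669 ± 7.88 and 1062 ± 46.0 CPM at day 1, 3 and 6 in WT krill oil, against 892 ± 8.67, 927 ± 15.5 and 1249 ± 15.8 CPM in WT control. In PD animals it was 974 ± 69.9, 898 ± 23.3 and 984 ± 19.8 CPM in krill oil, against 1006 ± 93.2, 1209 ± 61.9 and 1146 ± 49.8 CPM in control. Thus WT krill oil at day 3 held the lowest sum of the 12 groups, as it did for the lysozymes described below.

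In krill oil, spp-9 rose along with age. Its log2 fold change was 3.05 in PD (adjusted p = 0.00389, 0.127 with DESeq2) and 3.71 in WT (adjusted p = 3.45e-05) at day 3 against day 1. Without PD krill oil day 3 replicate 1 the PD value was 1.75, and without WT krill oil day 1 replicate 1 the WT value was 4.74. At day 6 against day 3 it was 1.72 in PD (adjusted p = 0.0331) and 1.57 in WT (adjusted p = 0.00899), calls that DESeq2 did not give (adjusted p = 0.478 and 0.378). The PD value was 2.99 without day 3 replicate 1 and was lost without day 3 replicate 2 (1.38, adjusted p = 0.134), day 3 replicate 3 (1.29, adjusted p = 0.133) or day 6 replicate 2 (1.65, adjusted p = 0.0752), and the WT value without day 6 replicate 1 (1.35, adjusted p = 0.0638). PD controls gained spp-9 as well, to 6.49, 5.28 and 6.96 CPM at day 6, against 0, 2.38 and 0 CPM at day 3 (log2 fold change 2.87, adjusted p = 0.0137, 0.110 with DESeq2). That call was lost without day 3 replicate 1 (2.30, adjusted p = 0.0518), and without day 3 replicate 2 the remaining libraries of day 3 are at 0 counts.

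A test of diet by age within each strain asked whether the krill oil effect on a member was the same at day 6 as at day 1. In PD animals 6 of 10 members passed, 2 with a higher and 4 with a lower effect at day 6 (22.5% and 20.4% of all genes), and in WT animals 8 passed, 1 higher and 7 lower (19.9% and 19.5% of all genes). In WT 50.5% of all genes called were higher, against 65.1% with DESeq2. The direction was shared by the strains for spp-1, spp-5 and spp-8, whose effects were lower at day 6 in both. It was opposite for spp-18 (1.36 in PD, -1.83 in WT, adjusted p = 0.000668 and 0.000672) and for spp-23 (0.95 in PD, -1.35 in WT, adjusted p = 0.00633 and 0.000250). For spp-2 the WT value was -2.11 (adjusted p = 0.0164), or -3.55 without WT control day 1 replicate 3. Its PD value was -0.86 (adjusted p = 0.0517), and it passed without PD control day 1 replicate 3, PD control day 6 replicate 1, PD krill oil day 1 replicate 1 or 2, or PD krill oil day 6 replicate 2 (-0.95 to -1.34, adjusted p from 0.000840 to 0.0462). It also passed with the replicate number as a block (-0.89, adjusted p = 0.0207), with RLE factors (-0.89, adjusted p = 0.0408) and with only all-zero genes removed (-0.87, adjusted p = 8.18e-12). As an estimate for spp-9 would rest on day 1 controls with 0 counts, none is given.

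Of the other 20 spp genes, spp-4 (109 CPM per kb), spp-10 (77.9 CPM per kb) and spp-15 (53.6 CPM per kb) had means above those of some members. The rest lay below every member per kilobase of exon, the highest of them being spp-16 (16.4 CPM per kb). Between 10 and 15 of the 20 could be tested in each krill oil comparison. Among them 1, 5 and 5 rose and 0, 6 and 0 fell with krill oil at PD day 1, 3 and 6, and 2, 4 and 7 rose and 0, 3 and 6 fell at WT day 1, 3 and 6. The tested numbers behind these counts were 10, 13 and 13 in PD and 11, 13 and 15 in WT. Of all genes tested, 7.44%, 21.2% and 24.8% rose and 8.07%, 19.9% and 12% fell at PD day 1, 3 and 6, and 4.87%, 22% and 30.9% rose and 2.49%, 14.1% and 32.6% fell at WT day 1, 3 and 6. Those that rose with a log2 fold change above 1 in some comparison were spp-4, spp-7, spp-12, spp-13, spp-20 and spp-21, and those that fell by more than 1 were spp-6, spp-22 and spp-25. At WT day 3, spp-13 stood at 5.11 ± 1.22 CPM in krill oil and 0.776 ± 0.0819 CPM in control (log2 fold change 2.73, adjusted p = 2.38e-05), and spp-20 at 3.11 ± 1.25 CPM in krill oil and 0.334 ± 0.238 CPM in control (log2 fold change 3.29, adjusted p = 0.00108; SD, n = 3 each).

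Lysozymes, which break bacterial cell walls and act in the same intestinal defense, gave counts in both directions. Of 16 listed lys and ilys genes, 10, 12 or 13 were tested. In PD animals 4, 4 and 3 rose and 2, 7 and 5 fell with krill oil at day 1, 3 and 6, with median log2 fold changes of 0.15, -0.18 and -0.20. In WT animals 5, 4 and 3 rose and 1, 8 and 8 fell, with medians of 0.04, -1.77 and -0.75. Over all genes the medians were 0.01, 0.00 and 0.05 in PD and -0.01, 0.00 and -0.02 in WT. At PD day 3, with 13 lysozyme genes tested, 21.2% of all genes rose and 19.9% fell, and at WT day 6, with 13 tested, 30.9% rose and 32.6% fell. The shares of all genes at the other ages are those set beside the spp genes above. Their summed level at WT day 3 was 655 ± 1.99 CPM in krill oil and 1552 ± 102 CPM in control (SD, n = 3 each).

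The sphingolipid hydrolases, the enzymes that saposins serve in mammals, are listed as 11 genes of acid sphingomyelinases, glucocerebrosidases, ceramidases and related enzymes. In PD animals 5, 4 and 6 of them rose and 1, 5 and 2 fell with krill oil at day 1, 3 and 6, and in WT animals 6, 4 and 3 rose and 1, 3 and 6 fell. All 11 were tested in each comparison, where 7.44%, 21.2% and 24.8% of all genes rose and 8.07%, 19.9% and 12% fell in PD, and 4.87%, 22% and 30.9% rose and 2.49%, 14.1% and 32.6% fell in WT. In both strains asm-2, asm-3, gba-1 and gba-2 rose at day 1, while gba-4 fell in every krill oil comparison. The acid ceramidase gene asah-1, named above as the gene most correlated with spp-8, also rose at day 1, with 61.7 ± 10.2 CPM in PD krill oil and 15.0 ± 2.23 CPM in PD control (log2 fold change 2.04, adjusted p = 1.23e-06). In PD animals asah-1 was higher at day 3 and day 6 too (log2 fold change 0.44 and 0.71, adjusted p = 6.99e-05 and 0.00013), where spp-8 did not pass. In WT animals asah-1 stood at 69.1 ± 3.42 CPM with krill oil and 16.0 ± 2.88 CPM without at day 1 (log2 fold change 2.11, adjusted p = 0.000118), and it fell at day 6, with 48.1 ± 4.70 CPM in krill oil and 76.1 ± 3.21 CPM in control (log2 fold change -0.65, adjusted p = 9.76e-07; SD, n = 3 each).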

How the data were processed

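RNA of whole worms from 12 groups (2 strains, 2 diets, 3 ages, 3 libraries each) was sequenced as paired ends after ribosomal RNA depletion. The deposited files hold whole-number counts per gene identifier for each library, made by the authors with STAR 2.7.10a on WBcel235 and UMI-tools removal of duplicates. The counting program, its use of strand and its treatment of reads that match several genes are not given in the sources used here. Counts were used as deposited, and groups came from the sample labels.

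The main test was the edgeR 4.0.16 quasi-likelihood test (R 4.3.3) with TMM factors and filterByExpr, and p-values were adjusted by Benjamini-Hochberg over all genes tested. Krill oil was compared with control in fits of 6 libraries for each strain and age, ages in fits of 18 libraries for each strain, and strains and interactions of diet and strain in fits of 12 libraries for each age. An adjusted p under 0.05 was called. The standard error is the size of the log2 fold change divided by the square root of the F statistic. The 10 members, the named-gene rule (all members, other spp genes called with an absolute log2 fold change over 1, and the 2 genes most correlated with each member among those of at least 5 CPM on average) and the lists were chosen with earlier results of these data known. Alternatives were DESeq2 1.42.0, RLE factors, removal of all-zero genes only, all 36 libraries in 1 fit, the replicate number as a block, and leaving out each library. The tests were also run on counts simulated for some of the comparisons, with changed genes of at least 5 CPM. Such a run does not cover genes at 0 counts in a group, such as spp-9, and no result above rests on it. Columns of the authors' own comparisons were not among the files.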

Additional observations from a re-analysis of the deposited data

Results flagged for a closer look

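The effects of krill oil differed between PD and WT animals, by a test of the difference itself (edgeR quasi-likelihood test, Benjamini-Hochberg), for 4 members at day 3 and 8 members at day 6. Of all genes tested, 3.4% had a higher and 6.2% a lower effect in PD at day 3, and 34.5% and 25.1% at day 6. At day 3 the log2 effect in PD was above that in WT by 0.46 for spp-1, 0.40 for spp-5, 0.35 for spp-14 and 0.32 for spp-8. At day 6 it was above the WT effect by 2.57 for spp-18, 1.80 for spp-23, 1.73 for spp-2, 1.10 for spp-8 and 1.03 for spp-3. For 3 members the PD effect at day 6 was the lower one, with differences of -4.64 for spp-9, -1.06 for spp-17 and -0.65 for spp-14.

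Effects also differed between day 6 and day 1 within a strain by the same kind of test. Of all genes tested, 22.5% had a higher and 20.4% a lower effect at day 6 in PD animals, and 19.9% and 19.5% in WT animals. In PD animals the log2 effect at day 6 minus that at day 1 was 1.36 for spp-18, 0.95 for spp-23, -0.45 for spp-14, -0.76 for spp-5, -0.92 for spp-8 and -1.02 for spp-1. In WT animals it was 1.34 for spp-17, -0.68 for spp-1, -0.86 for spp-5, -1.31 for spp-3, -1.35 for spp-23, -1.83 for spp-18, -2.11 for spp-2 and -2.27 for spp-8. The spp-2 value in WT was -3.55 without WT control day 1 replicate 3.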

How the results depend on the processing

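Of 218 pairs of a member and a comparison that were tested, 134 passed with edgeR. The shares of all genes called differ widely between comparisons and are given with each above, so this pooled count describes stability only and is no result about the family. Of these 134 pairs, 119 also passed under each of DESeq2, RLE factors, removal of all-zero genes only, the replicate block and 1 fit of all 36 libraries, and 110 passed whichever library was left out. The value of spp-2 changed direction on leaving out WT control day 1 replicate 3. With krill oil over control at WT day 1 it was 0.82, and between -0.98 and 0.82 over all libraries left out in turn. For PD over WT controls at day 1 it was 1.10, and between -0.78 and 1.10. The cause of this change, and of the changes in counts below, was not tested.

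With only all-zero genes removed, 5 members passed in PD krill oil at day 6 against day 3 (3 in the main test), 5 for PD over WT controls at day 1 (0), 2 for the interaction of diet and strain at day 1 (0), and 8 at day 3 (4). In 1 fit of all 36 libraries, 1 member passed for PD over WT controls at day 1 and 2 for the interaction at day 3. With single libraries left out, the count was 1 to 6 in PD krill oil at day 6 against day 3, 0 to 1 for PD over WT controls at day 1, and 3 to 5 for the interaction at day 3. Over all genes, 5333 were called with krill oil at PD day 6 and 8282 in the fit of all 36 libraries, and 1030 and 2316 at WT day 1. For PD over WT controls at day 1, 1578 genes were called, 2601 with only all-zero genes removed and 2604 with all 36 libraries. For the interaction at day 1, 13 were called, 49 with DESeq2, 507 with only all-zero genes removed and 32 with all 36 libraries, and at day 3, 1468, with 2585 under the lighter filter and 885 with all 36 libraries. These totals, which give the shares of all genes called, also moved by over 1.5 times when 1 library was left out. The range was 3473 to 7470 with krill oil at PD day 6 (3473 and 3555 without control replicate 1 or 3) and 464 to 1860 at WT day 1, where each of the 6 libraries moved it that far and 1860 is the count without control replicate 3. It was 754 to 1487 for PD over WT controls at day 1 (754, 835 and 923 without PD control replicate 2, 3 or 1). For the interaction at day 1 it was 3 to 21, past 1.5 times for each PD library, WT control replicate 3 and WT krill oil replicate 2, and at day 3 it was 936 to 1875, with 936 without PD control replicate 1.

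The main test did not pair libraries by replicate number, since correlations of same-numbered libraries lay between -0.17 and 0.28 and in no comparison were all over 0.1. With 3 libraries in a group, these correlations cannot show whether libraries of the same number were handled together, which was not tested. With the replicate block, 6 members passed with krill oil at PD day 1 and at WT day 1, as without it, 4 in PD krill oil at day 6 against day 3 (3 without), and 3 for the interaction at day 3 (4 without), and no count of members moved by over 1.5 times. The calls it changed were spp-2 in PD krill oil at day 6 against day 3 (0.60, adjusted p = 0.0355), spp-17 in WT control at that step (-0.35, adjusted p = 0.050007), spp-8 in the interaction at day 3 (0.32, adjusted p = 0.0736) and spp-2 in the diet by age test in PD (-0.89, adjusted p = 0.0207), and it changed no other call. The planned motif search and cysteine count were not run, since no sequence table was used here. Members other than spp-9 had at least 30 counts in each library. At day 1 spp-9 had 126 counts in PD krill oil (62, 2 and 62 by library) and 213 in WT krill oil (148, 60 and 5 by library). The cause of this spread between libraries was not tested.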
